A study of Homo sapiens and Mus musculus with 33 samples.

Results

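The cells described here are the 2742 barcodes with at least 1000 unique molecular identifiers (UMIs, each standing for 1 captured transcript molecule) in the standard 10x Genomics 3′ library of eHAP cells, set against all 1842 barcodes of the unstimulated Jurkat library labelled replicate 1. They are 2742 of the 30019 single-cell barcodes in the 16 single-cell libraries of the series, and 65 barcodes of the same library fell under the UMI minimum. The series holds 33 samples and is about NOTE-seq, an assay of newly made RNA in single cells that uses 4-thiouridine (4sU), an analogue of uridine that cells build into the RNA they make. The eHAP library of the pair came from cells without 4sU and was built with the regular 10x protocol, whereas the Jurkat library came from unstimulated cells of clone E6-1 labelled with 4sU and carried through NOTE-seq. Both lines are human, and the eHAP 10x library has no replicate. Further eHAP libraries used for comparison were 1 of 4sU-labelled cells made by NOTE-seq, with 3046 barcodes, and 1 of 4sU-labelled cells that were fixed in methanol and treated with iodoacetamide, with 4223 barcodes. Further Jurkat libraries were 1 more unstimulated library of clone E6-1 with no replicate number in its label, with 392 barcodes, the 239 human barcodes of a library that mixed unlabelled Jurkat cells with mouse NIH3T3 cells, and 2 libraries of stimulated cells whose clone is given as E6-2. The eHAP NOTE-seq and unstimulated Jurkat libraries were compared as 4sU-labelled libraries of the same protocol family. The stimulated library numbered 1 is titled as 4sU-labelled, and the 4sU status of the other stimulated library is not given here. Nothing in the labels says that the Jurkat libraries came from separate cultures, so a p-value reflects how far these libraries varied, and that variation may be technical.

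eHAP is an engineered, fully haploid derivative of HAP1, an adherent line that descends from the chronic myeloid leukaemia line KBM-7 and has lost blood cell character. Jurkat is a line from an acute T cell leukaemia that grows in suspension and carries a T cell receptor on its surface. T cell identity rests on the receptor with its CD3 chains, on the kinases and adaptors that carry its signal, and on transcription factors such as BCL11B, TCF7, LEF1 and the Ikaros family. Adherent cells instead use cadherins, desmosomes and integrins to hold to each other and to matrix, and in early embryonic and germ cells LIN28 proteins, which bind RNA and block maturation of let-7 microRNAs, accompany POU5F1 and SOX2.

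The eHAP 10x library held 55913854 UMIs, with a median of 18367 per barcode, and the Jurkat replicate 1 library held 37504889, with a median of 17481. The pair shared 0 barcodes, and the largest overlap of any pair of these libraries was 6. Mitochondrial genes took 4.64% of the UMIs of eHAP and 1.74% of those of Jurkat, and ribosomal protein genes took 15.6% and 7.13%. With both gene classes left out of the library totals, 2307 genes were at least 4-fold higher in eHAP and 2326 lower by the rule given below for the pair, and edgeR's test without mitochondrial genes called 1153 higher and 579 lower for 10x. The methanol library stood apart, with 36.1% of its UMIs in ribosomal protein genes and a median of 2404 genes per barcode against 5590.5 in the 10x library, and results are given with it named. Cell line, 4sU label and protocol cannot be told apart in the pair. The eHAP NOTE-seq library, which was also labelled with 4sU and made by NOTE-seq, is therefore given beside it.

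By marker counts most barcodes of the pair went with their labels. The markers were chosen with earlier results of these data known, so this is not independent support for the labels. Of the 2742 eHAP barcodes, 2623 had more UMIs from 10 eHAP-side markers (LIN28A, LIN28B, L1TD1, SALL4, IGF2BP1, KRT8, KRT18, CDH2, EPCAM and CAV1) than from 10 Jurkat-side markers (CD3D, CD3E, CD3G, CD247, TRAC, TRBC1, LCK, CD2, CD7 and PTPRC), 0 had more of the Jurkat markers and 119 had equal numbers. Over all eHAP barcodes the sums were 37740 and 53 UMIs. In Jurkat replicate 1, 1835 of 1842 barcodes had more Jurkat-side UMIs, 1 had more eHAP-side UMIs, and the sums were 117419 and 4814. In the methanol library 2588 barcodes had more eHAP-side UMIs, 4 more Jurkat-side UMIs and 1631 equal numbers. The median there was 1 eHAP-side UMI per barcode, so the markers say little about single barcodes of that library.

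With 1 library against 1 there is no test in the pair. A gene counted as different where its CPM, the UMI count scaled to the library's total, differed at least 4-fold among the 15622 genes whose UMIs in both libraries came to at least 100. For this rule and for the ratios printed below, counts under 3 UMIs, 0 included, were set to 3. Such ratios are smaller than the counts themselves give, and the intervals beside them use the counts as they stand. By this rule 2083 genes, 13.3% of those measured, were higher in eHAP and 2629, 16.8%, were lower, with a median log2 ratio of -0.41. The split depends on the scaling: with trimmed-mean (TMM) factors 2815 genes were higher and 1892 lower and the median was 0.17, so that 59.8% of the differing genes were higher in place of 44.2%. Across libraries, edgeR's quasi-likelihood test with Benjamini-Hochberg adjustment compared the single eHAP 10x library with the 2 unstimulated Jurkat libraries, taking the spread from the 2 Jurkat groups (2 residual degrees of freedom), and called 1149 genes higher (4.81% of 23866) and 577 lower (2.42%). The same fit for the eHAP NOTE-seq library, which shares the Jurkat libraries, called 942 higher (3.95%) and 311 lower (1.3%). All 3 eHAP libraries lay above both unstimulated Jurkat libraries for 2450 of the 15622 genes (15.7%) and below both for 4845 (31%). With the methanol library in place of 10x, 9.98% of the 15622 genes were at least 4-fold higher and 50.1% lower. These shares are the background for the counts of listed genes that follow. The edgeR counts also depend on which Jurkat libraries enter the fit, and many list counts that moved by more than 1.5 times are given with their list. Others, some DESeq2 counts among them, are not given.

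**Figure D1:**
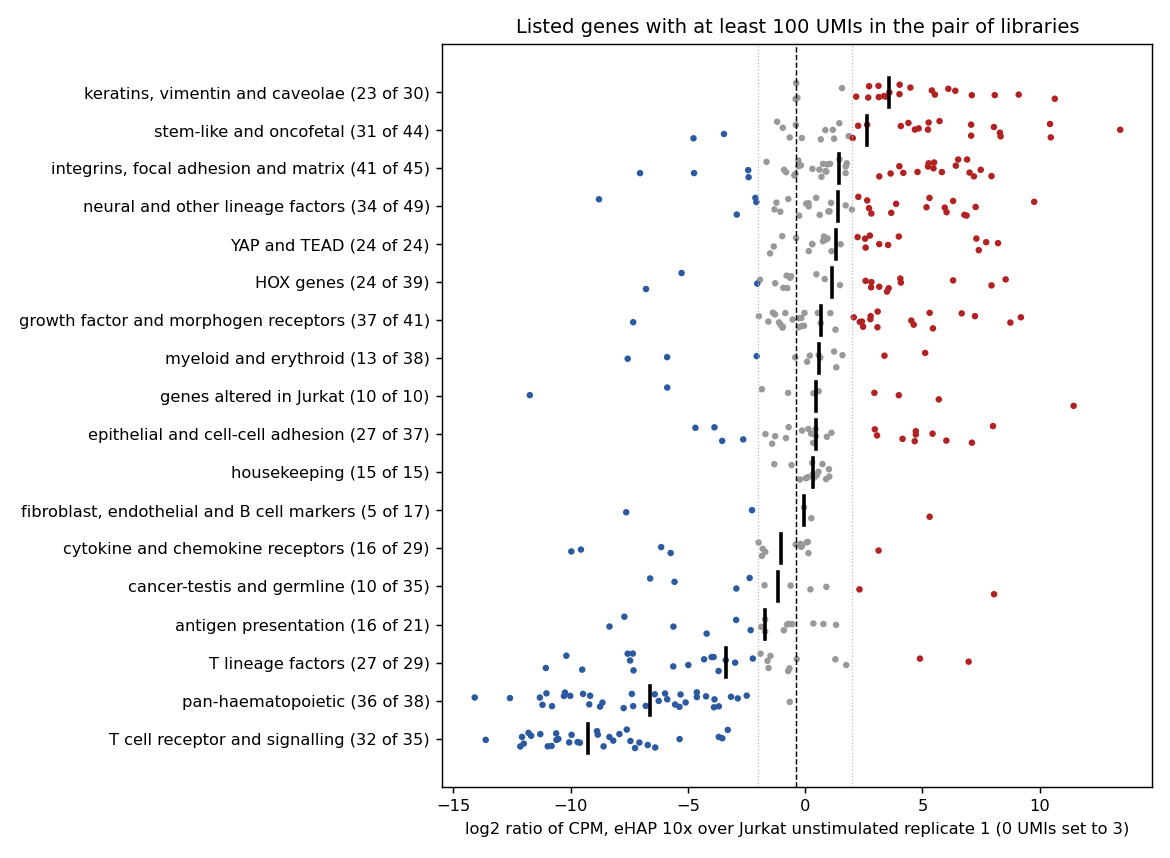
Log2 ratio of CPM in the eHAP 10x library over Jurkat replicate 1 (x axis) for each listed gene that could be measured, 1 row per gene list with the number measured of its members in brackets. Points are genes, red at least 4-fold higher in eHAP, blue at least 4-fold lower and grey between, black bars are list medians and the dashed line is the median of -0.41 over all 15622 genes. The T cell receptor list lies wholly to the left, at a median of -9.24, and the keratin and caveola list mostly to the right, at 3.59.

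T cell receptor and signalling genes were all but missing from eHAP. Of 35 listed genes 32 could be measured in the pair, and all 32 were at least 4-fold lower in eHAP, with a median log2 ratio of -9.24 against -0.41 over all genes. In 31 of the 32 measured every eHAP library lay below both unstimulated Jurkat libraries, and edgeR called 25 of 34 tested lower for the 10x library and 22 for NOTE-seq, and none higher. No member was higher at an unadjusted p under 0.05 in either contrast or by DESeq2, which called 31 lower in each. The summed level of the list was 7.4 to 53.1 CPM in the eHAP libraries and 4470 to 4693 CPM in the unstimulated Jurkat libraries. CD3D, a signalling chain of the receptor complex, had 0 UMIs in the eHAP 10x library and 9115 in Jurkat replicate 1. Its level was 0, 0.0295 and 0 CPM in the eHAP 10x, NOTE-seq and methanol libraries, and 243, 761 and 1633 CPM in Jurkat replicate 1, the unnumbered library and the mixed library. The lines did not overlap, and CD3D was at least 4530-fold lower in eHAP (3 UMIs set for the library at 0), with an adjusted p of 0.0292 by edgeR's quasi-likelihood test. Per cell, after each barcode was thinned to 5000 UMIs, CD3D was seen in 0 of 2468 eHAP barcodes, which allows a share of up to 0.122% for counting error only and limits barcodes with a UMI at that depth, not cells that express the gene, and in 68.1% of Jurkat barcodes (exact 95% interval 65.9 to 70.3%, and 91.5% without thinning).

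The other receptor chains followed the same pattern. TRBC1, the first constant region of the receptor beta chain, whose near-copy TRBC2 may share reads with it, had 0 UMIs in all 3 eHAP libraries and stood at 675 and 748 CPM in the unstimulated Jurkat libraries, at least 12577-fold lower in the pair (adjusted p = 0.0131, edgeR). CD3E had 1 UMI against 8235 and CD3G 1 against 7148. With the 1 UMI set to 3, the ratios were 4092 (exact 95% counting interval 2203 to 484977) and 3552 (1912 to 420969). Both lay below both Jurkat libraries in every eHAP library. THEMIS, a regulator of thymocyte selection, had 12 UMIs against 26454, and LCK, the kinase that starts receptor signalling, had 4 against 6728, a ratio of 2508 (979 to 9206). LCK was named here after its values were seen. GRAP2, an adaptor of the same pathway, was the member that differed most between eHAP libraries, at 0.0179 CPM in 10x, 6.89 in NOTE-seq and 0.0247 in methanol, against 231 and 109 CPM in Jurkat.

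The pan-haematopoietic list, genes shared by blood cells of many kinds, was also lower in eHAP. Of 36 measured members of 38, 35 were at least 4-fold lower and none higher, with a median of -6.61, and edgeR called 24 of 38 lower for 10x and 18 for NOTE-seq. The NOTE-seq count was 28 when either stimulated Jurkat library was left out and 31 with DESeq2. PTPRC, the CD45 phosphatase of white blood cells, had the lowest ratio of all measured genes, with 3 UMIs against 35032. Its level was 0.0537, 0.383 and 0.0371 CPM in the eHAP libraries and 934 and 401 CPM in the unstimulated Jurkat libraries, a ratio of 17409 in the pair (5957 to 84422). ARHGDIB, a regulator of small GTPases found in blood cells, had 5 UMIs against 20605 (adjusted p = 0.0131, edgeR), and SPN, the sialophorin CD43, had 2 against 5110. ARHGAP15 fell outside the edgeR calls (adjusted p = 0.0738) although its pair ratio was 2349 (1467 to 4033): it stood at 714 CPM in one unstimulated Jurkat library and 105 in the other. HCLS1, at a log2 ratio of -0.66, was the 1 measured member that did not reach 4-fold, and it was picked out after its values were seen.

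Myeloid and erythroid genes, of the lineages that leukaemias like the parent line come from, were mostly too low to measure. Only 13 of 38 could be measured in the pair, 2 were at least 4-fold higher and 3 lower, and 9 had 0 UMIs in eHAP 10x, among them MPO and ELANE (granule enzymes of myeloid cells), KLF1 (an erythroid factor) and HBB (beta globin). GATA2, a factor of blood stem and progenitor cells that other lineages also use, stood at 22.2, 23.6 and 2.84 CPM in the eHAP libraries and 0.64 and 0.277 in Jurkat, 34.7-fold higher in the pair (23.2 to 54.3) with an adjusted p of 0.0184 by edgeR. TAL1, also a factor of blood progenitors and active in T cell leukaemia, went the other way, with 0.304 against 57.7 CPM in the pair (adjusted p = 0.0138). BLVRB, biliverdin reductase B, was 10.4-fold higher in the pair but did not pass the test (adjusted p = 0.23), its level in the unnumbered Jurkat library being 31.8 CPM against 9.28 in replicate 1.

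Promoters of 3 genes that were low in eHAP are shown because the members moved together, as the 250 bases before a RefSeq transcription start in build GRCh38.p14, read 5′ to 3′ on the gene's strand. The start used is not always the outermost start of the gene. Capitals mark matches, on either strand, to the core letters of 5 factor families, and neighbouring matches can overlap. RUNX factors bind TGTGGT. The core letters of ETS factors were searched as AGGAAG. For the GATA family the letters searched were AGATAA. Octamer factors such as POU5F1 were searched as ATGCAAAT. The SOX family was represented by the letters CATTGT. The CD3D window lies at chr11:118342706-118342955 on the minus strand, LCK at chr1:32251015-32251264 and PTPRC at chr1:198638790-198639039, both on the plus strand. The PTPRC window lies inside the gene's RefSeq span, which begins at 198638713, so it precedes an inner start.
CD3D: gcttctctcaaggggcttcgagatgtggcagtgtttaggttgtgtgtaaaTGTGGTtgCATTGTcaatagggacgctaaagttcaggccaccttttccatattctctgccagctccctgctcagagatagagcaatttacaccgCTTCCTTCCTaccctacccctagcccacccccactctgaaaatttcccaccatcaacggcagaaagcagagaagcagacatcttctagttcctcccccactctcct
LCK: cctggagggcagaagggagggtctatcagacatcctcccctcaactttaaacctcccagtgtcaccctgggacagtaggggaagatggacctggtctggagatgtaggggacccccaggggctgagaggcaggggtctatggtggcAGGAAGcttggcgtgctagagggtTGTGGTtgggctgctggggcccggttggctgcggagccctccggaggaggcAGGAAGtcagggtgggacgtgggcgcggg
PTPRC: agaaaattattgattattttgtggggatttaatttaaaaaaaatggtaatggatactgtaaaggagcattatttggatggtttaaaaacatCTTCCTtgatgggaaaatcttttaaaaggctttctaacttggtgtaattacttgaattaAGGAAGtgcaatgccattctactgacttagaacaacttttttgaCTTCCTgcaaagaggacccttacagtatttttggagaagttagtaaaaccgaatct
The CD3D window held 1 RUNX match, 2 overlapping ETS matches and 1 SOX match, LCK held 1 RUNX and 2 ETS matches, and PTPRC held 3 ETS matches. Over the T cell receptor list, 20 of 35 genes had a promoter in the RefSeq table, of which 6 held a RUNX match and 9 an ETS match, 30% and 45%. Among 11094 measured genes with a promoter the shares were 7.69% and 27.5%, and among all 27305 promoters in the RefSeq table, 10.9% and 28.7%. The windows of the T cell list were also poorer in CG dinucleotides, with a median of 4.5 against 21 in measured genes. A match is a description of these letters only.

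T lineage transcription factors were lower as a group but not as uniformly. Of 27 measured of 29, 16 were at least 4-fold lower and 2 higher, with a median of -3.39, and edgeR called 8 lower and 2 higher for 10x and 7 and 1 for NOTE-seq. Without TMM factors none was called higher in either contrast, and the NOTE-seq counts were 15 lower with DESeq2, 11 lower without both stimulated libraries, and 2 to 3 higher when 1 Jurkat library was left out. IKZF1 (Ikaros) had 12 UMIs against 17124 and stood at 0.215, 0.501 and 0.198 CPM in the eHAP libraries against 457 and 206 in Jurkat (ratio 2127, interval 1218 to 4118, adjusted p = 0.0146 by edgeR). IKZF2 (Helios) was 1161-fold lower and IKZF3 (Aiolos) 726-fold lower, and each of these 3 genes lay below both unstimulated Jurkat libraries in every eHAP library. The IKZF2 call was lost when library totals replaced TMM factors. BCL11B, which commits cells to the T lineage, stood at 2.93, 3.89 and 1.28 CPM against 478 and 341 (163-fold, 140 to 191, adjusted p = 0.0188). LEF1, a nuclear partner of Wnt signalling in T cells, kept 426 UMIs in eHAP against 50416 and missed the threshold of edgeR's test by a margin in the fifth decimal (adjusted p = 0.0500233). TLX1 and TLX3, homeobox genes that are oncogenes in T cell leukaemia, were the 2 higher members, with 560 and 133 UMIs in eHAP 10x and 0 each in Jurkat replicate 1. GATA3, required in T helper cells, was 3.74-fold lower in the pair and did not pass the test (adjusted p = 0.46), and was named after its values were seen.

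Stem-like and oncofetal genes were on the high side in eHAP. Of 31 measured of 44, 18 were at least 4-fold higher and 2 lower, with a median log2 ratio of 2.64. EdgeR called 16 of 40 tested higher and 1 lower for 10x, and 13 and 0 for NOTE-seq. Without TMM factors the 10x count was 10 higher, and when either stimulated Jurkat library was left out the NOTE-seq count was 20 higher. With the methanol library in place of the 10x library the pair counted 13 higher and 10 lower of 31 with a median of -0.37, against 9.98% higher, 50.1% lower and a median of -2.0 over all genes. All 3 eHAP libraries lay above both Jurkat libraries for 15 members. PEG10, an imprinted gene derived from a retroelement that is expressed in placenta and tumours, had the highest ratio of all measured genes, with 49327 UMIs against 1, the latter set to 3 for the ratio. It stood at 882, 1209 and 670 CPM in the eHAP libraries and 0.0267 and 0 in Jurkat, a ratio of 11029 (5938 to 1306880, adjusted p = 0.0134 by edgeR). After thinning, 96.2% of eHAP barcodes and 0 of 1760 Jurkat barcodes had a PEG10 UMI, the latter allowing up to 0.170% of barcodes with a UMI at that depth, which does not limit cells that express the gene.

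Pluripotency factors were part of this group. SOX2, which with POU5F1 maintains pluripotent cells, stood at 111, 104 and 14.0 CPM in the eHAP libraries and 0.0267 and 0 in Jurkat, 6202 UMIs against 1 (ratio 1387 with the 1 UMI set to 3, interval 746 to 164340). POU5F1 (OCT4), which has near-identical pseudogenes that could share reads, stood at 77.4, 105 and 17.1 CPM against 0.24 and 0.277, 322-fold higher in the pair (170 to 705). DPPA4, a chromatin protein of pluripotent cells, stood at 114, 171 and 74 CPM against 0.08 and 0. None of these 3 overlapped between lines, and each had an adjusted p of 0.0131 for 10x and 0.0175 for NOTE-seq by edgeR's quasi-likelihood test. HMGA2, an oncofetal chromatin protein and let-7 target, was 316-fold higher (176 to 633) and PROM1, the membrane protein CD133, 264-fold (128 to 658). NANOG, the other core pluripotency factor, was close to the detection limit in both lines, with 5 UMIs in eHAP and 3 in Jurkat, and was named after its values were seen. ESRRB, an orphan receptor of naive pluripotency, was the 1 member edgeR called lower.

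Promoters of SOX2, at chr3:181711675-181711924 on the plus strand, DPPA4, at chr3:109337547-109337796 on the minus strand, and LIN28B, at chr6:104940715-104940964 on the plus strand, are shown with the same marking as examples from the high side, to set beside the T cell promoters. The DPPA4 window lies inside the gene's RefSeq span, which ends at 109339636, so it too precedes an inner start.
SOX2: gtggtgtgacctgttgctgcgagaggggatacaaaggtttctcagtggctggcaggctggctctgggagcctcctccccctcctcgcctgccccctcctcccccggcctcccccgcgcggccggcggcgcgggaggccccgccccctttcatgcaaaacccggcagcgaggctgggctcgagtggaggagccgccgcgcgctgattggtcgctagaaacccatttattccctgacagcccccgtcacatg
DPPA4: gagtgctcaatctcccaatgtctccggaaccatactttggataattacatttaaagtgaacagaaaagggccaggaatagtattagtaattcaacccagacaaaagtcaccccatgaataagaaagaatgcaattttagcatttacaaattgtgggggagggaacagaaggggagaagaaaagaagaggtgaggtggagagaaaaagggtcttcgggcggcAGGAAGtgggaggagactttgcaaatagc
LIN28B: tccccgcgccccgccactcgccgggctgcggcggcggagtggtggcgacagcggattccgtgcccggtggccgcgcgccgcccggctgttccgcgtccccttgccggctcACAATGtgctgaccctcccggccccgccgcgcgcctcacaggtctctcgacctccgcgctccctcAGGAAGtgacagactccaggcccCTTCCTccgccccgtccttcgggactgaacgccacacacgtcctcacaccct
The SOX2 window held none of the searched letters, DPPA4 held 1 ETS match and LIN28B 2 ETS matches and 1 SOX match. Of 27 stem-like genes of 44 with a promoter in the table, 1 held a RUNX match, 6 an ETS match and 5 a SOX match. The SOX share of 18.5% stood beside 20% in the T cell receptor list (4 of 20), 5.13% in measured genes and 9.45% in all promoters. GC content was 68.8% in SOX2, 73.6% in LIN28B and 43.2% in DPPA4, against 50.4% in CD3D and a median of 64.8% over measured genes.

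LIN28A, the marker given for the eHAP cells, separated the pair but not every library. It had 2747 UMIs in eHAP 10x and 72 in Jurkat replicate 1, 49.1 against 1.92 CPM, 25.6-fold higher (20.3 to 32.8). The level was 331 CPM in eHAP NOTE-seq, 0.148 CPM in eHAP methanol, and 0 in both the unnumbered and the mixed Jurkat libraries. The lines overlapped, since the methanol library lay below Jurkat replicate 1, and edgeR did not call the gene in either contrast (adjusted p = 0.153 and 0.119). Thinned to 5000 UMIs, 14.9% of eHAP 10x barcodes had a LIN28A UMI (13.5 to 16.3%), 50.1% of NOTE-seq barcodes (48.2 to 52.0%) and 1.31% of Jurkat replicate 1 barcodes (0.830 to 1.95%). Without thinning the shares were 31.2%, 57.8% and 3.85%. Its paralogue LIN28B, named after its values were seen, varied less between eHAP libraries, at 99.4, 93.1 and 14.1 CPM in eHAP and 2.59 and 1.11 in Jurkat (38.4-fold, 31.4 to 47.5), with an edgeR log2 difference of 6.19 ± 0.78 (SE) and an adjusted p of 0.016. The lines did not overlap for LIN28B.

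**Figure D2:**
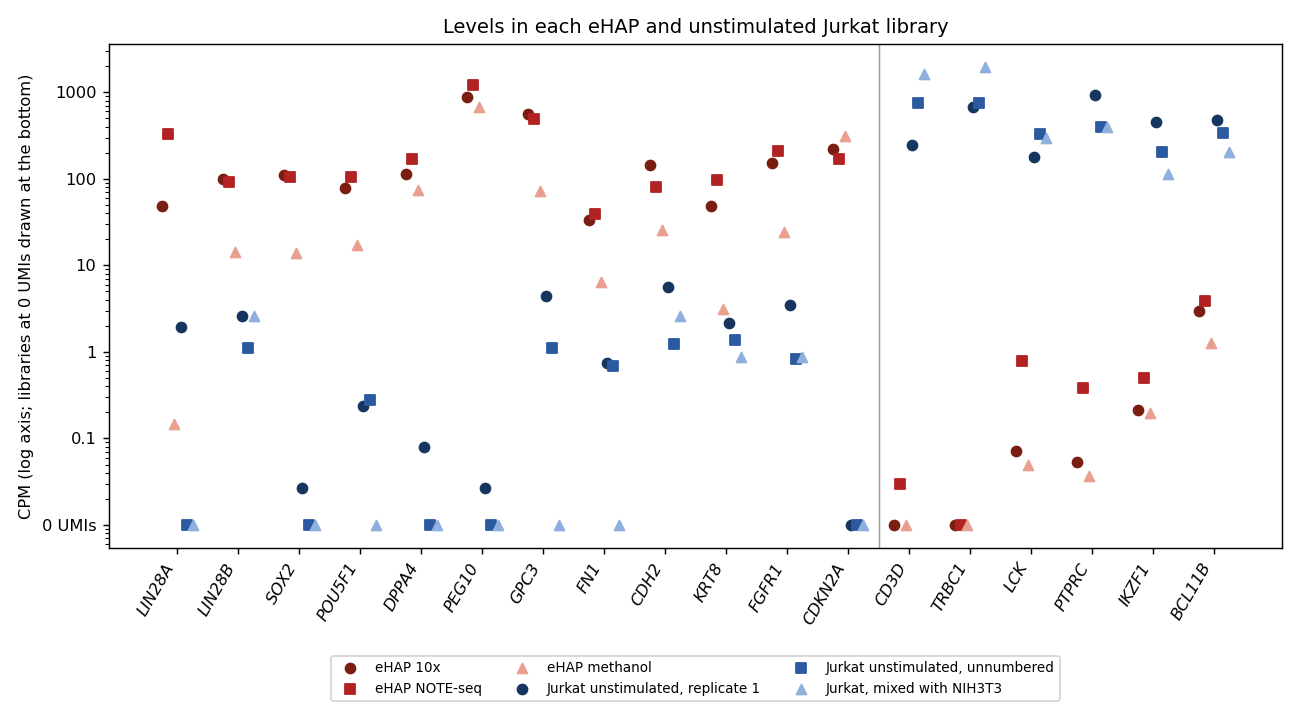
CPM on a log axis (y) of 18 genes (x) in 3 eHAP libraries (reds) and 3 unstimulated Jurkat libraries (blues), 1 point per library, with libraries at 0 UMIs drawn at the bottom and a grey line between genes on the high side and the low side of the pair. LIN28A spans 0.148 to 331 CPM among eHAP libraries, whereas PEG10 spans 670 to 1209, and the genes on the right stand above 100 CPM in every Jurkat library.

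LIN28A was also among the most unevenly distributed genes within eHAP, in a look added after the values were seen. Among 7500 genes with a mean of at least 0.1 UMIs in 10x barcodes thinned to 5000, it ranked 28 by variance beyond counting noise over the squared mean, and it ranked 42 of 8142 in NOTE-seq. Its variance over its mean was 1.35 and 2.86 in the 2 libraries. SOX2, at 1.04 and 1.04, and DPPA4, at 1.02 and 1.02, lay close to the value of 1 that counting noise alone gives.

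The barcodes with and without a LIN28A UMI in that draw, 373 and 2095 in 10x and 1370 and 1339 in NOTE-seq, were compared without a test. Of 9491 genes, the 10 highest and 10 lowest in 10x were picked by their ratio, and all 20 had the same direction in NOTE-seq, which was not used to pick them. The share with the same direction over all 9491 genes was not counted, so the 20 have no background beside them. POSTN, a secreted matrix protein, led the higher side, with means of 0.456 and 0.111 UMIs in 10x barcodes with and without LIN28A and 0.269 and 0.0194 in NOTE-seq. ITM2A, a membrane protein, had 0.383 and 2.02 in 10x and 0.899 and 2.34 in NOTE-seq, and SNTG2, a syntrophin, had 0.113 and 0.830 and then 0.260 and 0.775. Among listed genes, KRT8 was higher with LIN28A by 0.96 and 1.66 on the log2 scale with 0.01 UMIs added, TDGF1, a Nodal co-receptor, by 1.12 and 1.21, and FOXP1, a forkhead factor, was lower, at -1.61 and -1.18. Barcodes with a LIN28A UMI were deeper before thinning, at a median of 24697 against 19050 UMIs in 10x and 11133.5 against 9177 in NOTE-seq, with similar mitochondrial shares of 4.32% and 4.20%, and 2.23% and 2.15%. The part of depth in these differences was not tested.

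**Figure D3:**
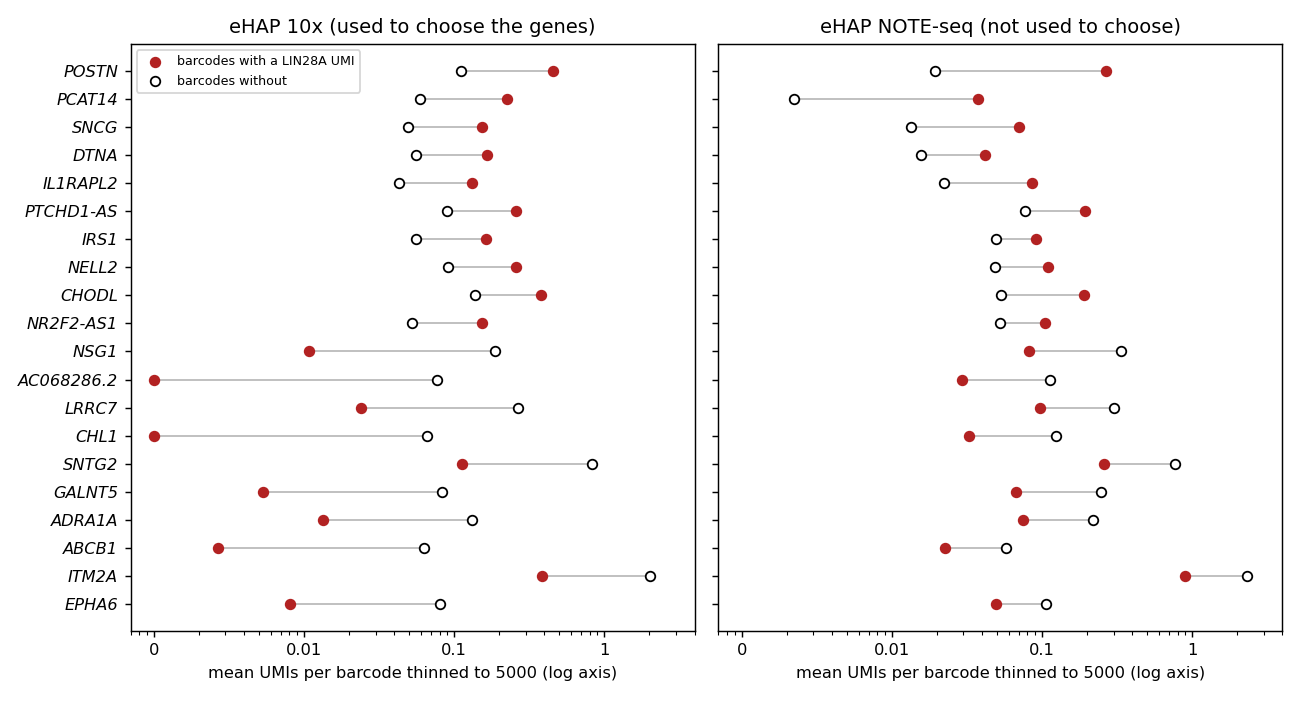
Mean UMIs per barcode thinned to 5000 (x, log axis, means of 0 drawn at the left edge) for 20 genes (y), in eHAP barcodes with a LIN28A UMI (filled) and without (open), for 10x on the left, where the genes were picked, and NOTE-seq on the right. All 20 lie on the same side in both panels, with POSTN at 0.269 and 0.0194 in NOTE-seq.

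Genes of the cytoskeleton and membrane that mark adherent cells had the largest share of higher members among the 18 lists. Of 23 measured of 30 in the list of keratins, vimentin and caveolae, 19 were at least 4-fold higher and none lower, with a median of 3.59. Every eHAP library lay above both Jurkat libraries for 19 members, and edgeR called 13 of 24 higher for 10x and 11 for NOTE-seq. The summed level was 2848 to 4465 CPM in the eHAP libraries and 889 to 895 CPM in unstimulated Jurkat. S100A11, a calcium-binding protein, stood at 128, 104 and 63.7 CPM in eHAP and 0.0533 and 0 in Jurkat, and NES (nestin), an intermediate filament of progenitors, at 73.3, 112 and 12.1 CPM against 0.133 and 0.138. Both had an adjusted p of 0.0131 by edgeR. KRT8 and KRT18, the paired keratins of simple epithelium, were 22.4-fold (18.0 to 28.3) and 46.3-fold (38 to 56.9) higher, and KRT18 stood at 125, 85.4 and 86.8 CPM against 2.69 and 3.18. CAV1, the caveola coat protein, stood at 21.7, 4.89 and 2.00 CPM against 0.0267 and 0.138 (adjusted p = 0.016). VIM (vimentin) was high in both lines, at 1328, 785 and 512 CPM against 294 and 416, and did not pass the test (adjusted p = 0.166). KRT8, KRT18 and VIM were named after their values were seen.

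Cell-cell adhesion genes were more often higher than lower. Of measured members 37.0% were at least 4-fold higher and 14.8% lower, against 13.3% and 16.8% of all measured genes. Of 27 measured of 37, 10 were at least 4-fold higher and 4 lower, with a median of 0.44, and edgeR called 9 higher and 1 lower for 10x and 8 and 0 for NOTE-seq. The higher members included parts of desmosomes and tight junctions. DSC2, a desmosomal cadherin, stood at 20.6, 22.8 and 4.74 CPM in eHAP and 0.0533 and 0 in Jurkat, and TJP1 (ZO-1), the tight junction scaffold, at 155, 91.8 and 22.6 CPM against 1.12 and 0.969 (138-fold, 102 to 192), each with an adjusted p of 0.0131 by edgeR. DSP, the desmosomal plaque protein, was 64.8-fold higher (45.8 to 94.9) and its neighbour in the plaque, PKP2, 43.1-fold (29.5 to 65.6). With library totals in place of TMM factors the 10x count was 4 higher, and the calls of DSP and NECTIN3 were lost. The NOTE-seq count was then also 4. In the pair, the methanol library gave 8 higher and 11 lower of 27, against 9.98% and 50.1% of all genes, and the unnumbered Jurkat library 11 and 1. Among classical cadherins, CDH2 (N-cadherin) stood at 144, 80.7 and 25.4 CPM against 5.65 and 1.25 (25.5-fold, 22.2 to 29.3, adjusted p = 0.0401 for 10x and 0.0765 for NOTE-seq), while CDH1 (E-cadherin) had 6 UMIs in eHAP and 38 in Jurkat, both named after their values were seen. CDH6 (K-cadherin), among the 12 highest ratios of all genes, stood at 387, 192 and 40.3 CPM against 0.187 and 0.138.

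Matrix and integrin genes had 17 of 41 measured members at least 4-fold higher and 4 lower, with a median of 1.46, and edgeR called 16 of 45 higher and 2 lower for 10x and 16 and 0 for NOTE-seq. With the methanol library the counts were 14 higher and 14 lower of 41, against 9.98% and 50.1% of all genes. COL4A5 and COL4A6, neighbouring genes for basement membrane collagen chains, were 246-fold (163 to 393) and 147-fold (93.7 to 244) higher. COL4A5 stood at 145, 98.9 and 11.8 CPM in eHAP and 0.587 and 0.554 in Jurkat. GPC3, a heparan sulphate proteoglycan of fetal liver and placenta, stood at 567, 491 and 71.5 CPM against 4.4 and 1.11 (129-fold, 111 to 151, adjusted p = 0.0282 by edgeR), and was found in 83.1% of thinned eHAP barcodes and 1.76% of Jurkat barcodes. Its call was lost with library totals in place of TMM factors. FN1 (fibronectin), named after its values were seen, stood at 33.1, 39.6 and 6.47 CPM against 0.747 and 0.692. LIMS2, a focal adhesion adaptor, was 132-fold lower in eHAP (88.9 to 204).

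YAP and TEAD genes, which respond to attachment and cell shape in many cell types, had 11 of 24 at least 4-fold higher in the pair and none lower, with edgeR calling 7 higher for 10x and 6 for NOTE-seq. The 10x count was 11 when either stimulated library was left out, and the NOTE-seq count was 3 without TMM factors. With the methanol library in place of 10x the pair counted 2 higher and 10 lower of 24, against 9.98% and 50.1% of all genes, and with the unnumbered Jurkat library in place of replicate 1 it counted 17 higher. The matricellular targets varied widely between eHAP libraries. CCN1 stood at 84.1, 23.9 and 0.778 CPM in the 10x, NOTE-seq and methanol libraries and 0.4 and 0.554 in Jurkat, and ANKRD1, another target, at 13.5, 0.943 and 0.0494 CPM against 0.0267 and 0. ANKRD1 passed the test for 10x (adjusted p = 0.0246 by edgeR) and not for NOTE-seq (0.131). CCN2, at 23.9, 15.4 and 3.05 CPM, had 0 UMIs in both Jurkat libraries and was at least 298-fold higher in the pair. The factor TEAD2 was steadier, at 21.0, 39.2 and 10.2 CPM against 0.133 and 0.138, and the co-activator WWTR1 (TAZ) was 11.6-fold higher (10.1 to 13.3).

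Growth factor and morphogen receptors had 16 of 37 measured members at least 4-fold higher and 1 lower, with edgeR calling 8 higher and 1 lower for 10x and 9 and 1 for NOTE-seq. Without TMM factors 4 were called higher for 10x and 3 for NOTE-seq, and leaving out either stimulated library gave 14 and 16. The methanol library in the pair gave 7 higher and 19 lower of 37, against 9.98% and 50.1% of all genes. FGFR1 and FGFR2, fibroblast growth factor receptors, stood at 154, 208 and 24.4 CPM and at 84.4, 83.9 and 10.9 CPM in eHAP, against 3.52 and 0.831 and against 0.827 and 0.554 in Jurkat. FGFR2 had an adjusted p of 0.0131 and FGFR1 one of 0.023 in edgeR, the latter lost with library totals in place of TMM factors. MET, the hepatocyte growth factor receptor, was 151-fold higher (69.2 to 412). Ephrin receptors went both ways, EPHA7 and EPHA4 being higher, at 46.9 against 0.08 and 68.7 against 0.16 CPM in the pair, and EPHA1 lower, at 0.0358 against 8.64 CPM.

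Cytokine and chemokine receptors had 1 of 16 measured members at least 4-fold higher and 4 lower, or 0 and 11 with the methanol library, against 9.98% higher and 50.1% lower over all genes. EdgeR called 3 of 27 lower and none higher for 10x, and 1 and none for NOTE-seq. These counts turned on single Jurkat libraries: when 1 was left out, 7 to 10 were called lower and 1 higher for 10x and 6 to 8 lower and 1 higher for NOTE-seq, with the most lower calls when either stimulated library was left out. DESeq2 called 10 lower for 10x and 8 for NOTE-seq. CXCR4, the receptor for CXCL12, stood at 0.0358, 0 and 0.0124 CPM in eHAP and 53.8 and 81.1 in Jurkat (adjusted p = 0.0154 by edgeR). LIFR, the leukaemia inhibitory factor receptor, was 8.75-fold higher (7.14 to 10.8) and did not pass the test (adjusted p = 0.0672). Antigen presentation genes had 6 of 16 lower and none higher, and edgeR called 3 of 20 lower in each contrast. With NOTE-seq in the pair 4 of 16 were lower and with methanol 10, against 15.4% and 50.1% of all genes, and none was higher. The summed level of this list overlapped between lines, at 536, 849 and 1135 CPM in the eHAP libraries and 898 and 920 in Jurkat. CD1D, which presents lipids, had 0 UMIs in all eHAP libraries and stood at 11.2 and 11.1 CPM in Jurkat (at least 209-fold lower, adjusted p = 0.0149). PSMB9, an immunoproteasome subunit, stood at 1.14, 0.884 and 3.64 CPM against 21.0 and 18.5. B2M, the invariant chain of class I molecules, had a log2 ratio of -0.56 and was named after its values were seen.

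Developmental factors were more often higher than lower. Of measured members 44.1% were at least 4-fold higher and 11.8% lower, against 13.3% and 16.8% of all measured genes. Of 34 measured neural and other lineage factors of 49, 15 were at least 4-fold higher and 4 lower, and edgeR called 9 of 42 higher and 1 lower for 10x and 10 and 1 for NOTE-seq. When either stimulated library was left out 18 were called higher for 10x, and DESeq2 called 15, while without TMM factors 6 were higher for NOTE-seq. OTX2, a factor of forebrain and primed pluripotent cells, stood at 69.6, 90.8 and 25.8 CPM in eHAP and 0.0533 and 0 in Jurkat (ratio 870, 361 to 10774, adjusted p = 0.0162 by edgeR). The OTX2 ratio took the Jurkat replicate 1 count, which was under 3, as 3 UMIs. TBX3, a T-box factor of several embryonic tissues, stood at 12.3, 12 and 1.47 CPM and had 0 UMIs in both Jurkat libraries, at least 154-fold higher in the pair. FOXA1, an endoderm pioneer factor, was at 8.84 against 0.0533 CPM in the pair, and MSX2, a homeobox factor, had 527 UMIs against 0. SOX11, a neural SOX factor, had 0 UMIs in all 3 eHAP libraries and stood at 23.7 and 7.06 CPM in Jurkat (at least 442-fold lower, adjusted p = 0.0273). With the methanol library the list counted 10 higher and 14 lower of 34, against 9.98% and 50.1% of all genes, and with the unnumbered Jurkat library in place of replicate 1 it counted 16 and 2.

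HOX genes, which set position along the body axis, had 11 of 24 measured members at least 4-fold higher and 3 lower, and edgeR called 10 of 33 higher and 2 lower for 10x and 6 and 1 for NOTE-seq. Without TMM factors the counts were 4 higher for 10x and 3 for NOTE-seq, and the NOTE-seq count was 13 when either stimulated library was left out. The methanol library in the pair gave 4 higher and 7 lower of 24, against 9.98% and 50.1% of all genes. Neighbours within a cluster did not move together throughout. HOXA9 stood at 59.9, 58.3 and 20.9 CPM against 0.16 and 0.277 (374-fold, 172 to 1020, adjusted p = 0.0131 by edgeR). In the B cluster HOXB2 was higher, at 19.7 against 0.0533 CPM in the pair, and HOXB7 lower, at 0.125 against 13.8 CPM (adjusted p = 0.0385). In the C cluster HOXC13 had 354 UMIs against 0 and HOXC4 14 against 362. Among germline genes only 10 of 35 could be measured, 2 higher and 4 lower, and edgeR called 1 higher and 1 lower for 10x, or 3 lower when any 1 Jurkat library was left out. DAZL, an RNA-binding protein of germ cells, was the 1 called higher by edgeR, at 56.7, 84.0 and 28.5 CPM against 0.213 and 0.138 (266-fold, 135 to 616).

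Of 10 genes known to be altered in Jurkat cells, 4 were at least 4-fold higher in eHAP and 2 lower. These shares of 40% and 20% stood beside 13.3% and 16.8% of all measured genes. EdgeR called 3 higher and 2 lower for 10x and 1 and 2 for NOTE-seq. Without TMM factors 1 was called higher for 10x and none lower for NOTE-seq, and when either stimulated library was left out 3 were higher for NOTE-seq. INPP5D (SHIP1), a lipid phosphatase that Jurkat cells are known to lack as protein, stood at 1.27, 2.3 and 0.136 CPM in eHAP and 74.8 and 46.6 in Jurkat, 58.9-fold lower (46.6 to 75.7) with an adjusted p of 0.0241 by edgeR. CDKN2A, which encodes the inhibitors p16INK4a and p14ARF, stood at 223, 171 and 312 CPM in eHAP with 0 UMIs in both unstimulated Jurkat libraries, at least 2788-fold higher, and CDKN2B, the p15INK4b gene beside it, had 232 UMIs against 0. The CDKN2B call (adjusted p = 0.0424) was lost with library totals in place of TMM factors. MSH6, a mismatch repair protein, was 7.73-fold higher (7.15 to 8.37, adjusted p = 0.0301), and its call was lost with library totals and also without the unnumbered Jurkat library. BAX, an effector of cell death, was 15.9-fold higher in the pair and did not pass (adjusted p = 0.235), Jurkat replicate 1 standing at 9.65 CPM and the other unstimulated library at 40.4. NOTCH1, a receptor often mutated in T cell leukaemia, differed by 1.65-fold between the libraries of the pair (1.49 to 1.84). With the methanol library in place of 10x, 3 of these 10 genes were at least 4-fold higher and 4 lower, against 9.98% and 50.1% of all genes.

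Some but not all neighbours of CDKN2A differed as it did, which was looked for after its values were seen. Measured genes with a RefSeq position (build GRCh38.p14) numbered 13569, and runs were searched with chromosomes 8, X, Y and the mitochondrion left out. Runs of at least 3 neighbours that were all at least 32-fold different numbered 9 with 30 genes on the high side of eHAP and 14 with 52 genes on the low side. On chromosome 9 the high run held KLHL9, MTAP and CDKN2A. KLHL9, an adaptor of a ubiquitin ligase, had 1259 UMIs against 0 and MTAP, an enzyme of methionine salvage, 8505 against 19. DMRTA1, further along, had 132 against 0. Between them the antisense RNA CDKN2B-AS1, which overlaps CDKN2B, had 1394 against 259, and FOCAD, on the other side, 3469 against 3353. In Jurkat replicate 1 the 259 UMIs of CDKN2B-AS1 stood beside 0 of CDKN2B, so there the genes were counted apart. Whether reads were shared in eHAP 10x, at 1394 and 232 UMIs, was not tested. HACD4, a dehydratase gene between FOCAD and KLHL9, went the other way, with 14 UMIs against 939. It stood at 0.25, 0.177 and 0.0494 CPM in eHAP and 25 and 10.1 in Jurkat (100-fold lower, 59.3 to 184, adjusted p = 0.0292 by edgeR).

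**Figure D4:**
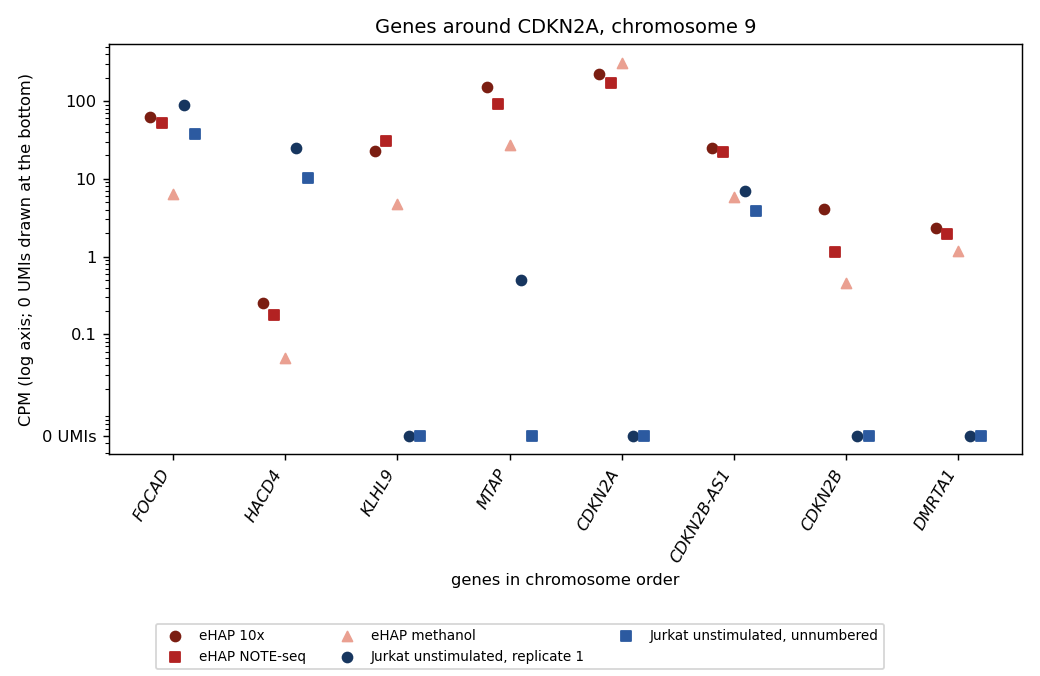
CPM on a log axis (y) of genes in chromosome order (x) around CDKN2A, in 3 eHAP libraries (reds) and 2 unstimulated Jurkat libraries (blues), 1 point per library and 0 UMIs drawn at the bottom. KLHL9, CDKN2A, CDKN2B and DMRTA1 lie at 0 UMIs in both Jurkat libraries, and FOCAD is measured in both lines.

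Other runs held genes of the lists. The CD1 genes with PYHIN1 and IFI16 (chromosome 1, 158178030 to 159055151) formed a run of 7 lower genes, and CD1A, CD1B, CD1C, CD1D and CD1E each had 0 UMIs in eHAP 10x. IFI16, a sensor of DNA, had 1 UMI against 8993 and stood at 0.0179, 0.0295 and 0.0124 CPM in eHAP. CD3E, CD3D and CD3G formed another low run on chromosome 11. On the high side, PEG10 lay in a run of 4 on chromosome 7 with SGCE, a sarcoglycan, PPP1R9A and PON2, a paraoxonase, the last at 65.5 CPM in eHAP 10x and 0 in Jurkat replicate 1. CAV1, CAV2, TES and MET formed a further run of 4 on the same chromosome, and CDH6 one with CDH9, CDH10 and the long non-coding RNA PURPL on chromosome 5.

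Outside the lists, the 12 highest ratios also held UCHL1, a ubiquitin hydrolase of neurons, at 401, 462 and 394 CPM in eHAP and 0.0533 and 0 in Jurkat, TUBB2B, a neuronal tubulin with near-identical family members, at 167, 189 and 88.3 CPM, and KIF1A, a neuronal kinesin, at 121, 242 and 43.8 CPM. Each had an adjusted p of at most 0.0136 by edgeR for 10x. TSPO, a protein of the outer mitochondrial membrane, stood at 152, 126 and 250 CPM against 0.107 and 0. The transcript AP002954.2 was at 1162 CPM in eHAP 10x but at 173 and 223 in the other eHAP libraries, and PBDC1 and AC007326.5 completed the 12. Among the 12 lowest, UBB, 1 of the polyubiquitin genes, had 3 UMIs in eHAP against 11885 and stood at 0.0537, 0.0884 and 0.0865 CPM against 317 and 669 (ratio 5906, 2021 to 28644, adjusted p = 0.0211). VAV3, an exchange factor for small GTPases, was at 0.0894 against 508 CPM in the pair (adjusted p = 0.0336, lost with library totals in place of TMM factors). The non-coding CCDC26, AC105941.1, AC007100.1 and LINC01222 did not pass edgeR's test, with adjusted p-values of 0.11, 0.0966, 0.0748 and 0.0877. CCDC26 stood at 2763 CPM in Jurkat replicate 1 and 205 in the unnumbered library. AC093865.1 completed the 12, with 0 UMIs against 18305.

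Housekeeping genes served as a reference. None of 15 reached 4-fold in the pair, with a median of 0.33. With another eHAP library in the pair, 1 was higher with NOTE-seq (median 0.86) and 2 lower with methanol (0.10). With another Jurkat library, 1 was lower with the unnumbered library (-0.23) and 1 with the mixed library (0.21). EdgeR and DESeq2 called none of them in either contrast, and 1 had an unadjusted edgeR p under 0.05 for 10x and 0 for NOTE-seq. GAPDH, a glycolytic enzyme with many processed pseudogenes, stood at 2290, 5799 and 5090 CPM in eHAP and 2250 and 10587 in Jurkat, a log2 ratio of 0.03 in the pair, and ACTB (beta actin) had a ratio of 0.32. Markers of other cell types the libraries could hold were scarce. Of 17 fibroblast, endothelial and B cell markers 5 could be measured, their summed level was 5.4 to 42.0 CPM in eHAP and 56.5 to 77.8 in Jurkat, and COL1A2, DCN, LUM, CDH5 and MS4A1 had 0 UMIs in eHAP 10x. PDGFRA, a growth factor receptor of mesenchyme on that list, stood at 10.6, 11.5 and 0.111 CPM against 0.267 and 0.138 (adjusted p = 0.0149), overlapping through the methanol library.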

How the data were processed

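Single-cell libraries were read from the deposited matrices, which hold UMI counts per gene and barcode, not normalized by the authors. They were made with cellranger 7.1.0, or 7.2.0 in the case of the mixed library, per the file headers, and the submitters' processing notes name GRCh38 and mm10. Whether intronic or antisense reads were counted is not given in the sources used here. Cells under 1000 UMIs were left out of the eHAP 10x library, barcodes with at least 90% human UMIs were kept from the mixed library, and no doublets were removed. The UMIs of each library were summed over 36601 genes and divided by the library total (CPM). Pair intervals are exact 95% binomial intervals on the UMIs of both libraries and cover counting error only, as do shares and limits of 3 counts at 0. Sums were tested with edgeR 4.0.16 (R 4.3.3) in a quasi-likelihood fit of 7 libraries with TMM factors, filterByExpr and a false discovery rate of 0.05. The 7 libraries were those of eHAP (3), unstimulated Jurkat (2) and stimulated Jurkat (2), and the lone eHAP library of each contrast was assumed to vary like the Jurkat groups. DESeq2 1.42.0 was an alternative. For shares, barcodes were thinned to 5000 UMIs, and the comparison by LIN28A used a second draw. Named genes were LIN28A, CD3D, the 12 highest and 12 lowest ratios, up to 6 members per list with the largest ratio, and all housekeeping and Jurkat-altered genes. Others are said to be named after their values were seen, and examples at 0 UMIs were also allowed. Members, 18 lists with 569 genes, and rules were chosen with earlier results of these data known. Promoter sequences and positions came from RefSeq (GRCh38.p14), matched by symbol. Some genes and regions are not reported here.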

Additional observations from a re-analysis of the deposited data

How the results depend on the processing

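Limits come first. The pair has 1 library per line, which differ in protocol and 4sU label, the edgeR fit rests on the spread of 4 Jurkat libraries, and the methanol library differs from both other eHAP libraries. In the pair, an 8-fold rule gave 1335 genes higher and 1533 lower. With the methanol library in place of 10x the lower count was 7429 of 14847 genes. It was 1137 of 13910 with the unnumbered Jurkat library in place of replicate 1, and 509 of 13388 with the mixed library. In these counts the minimum of 100 UMIs was applied anew to each pair, which removes more genes where a library is shallow. Over the same 15622 genes the lower counts were 7830, 1918 and 1830, against 2629 in the main pair. The methanol library turned LIN28A (-3.69), ANKRD1 (-0.69) and PDGFRA (-1.26) below 0 on the log2 scale. In edgeR's test of the 10x library, the counts higher and lower were 681 and 452 without TMM, 2059 and 1311 with no filter on low counts, 2215 and 1608 without the stimulated libraries, and 1226 to 2249 and 1007 to 1653 when 1 Jurkat library was left out. DESeq2 called 1713 and 1522. For the NOTE-seq library they were 638 and 193, 1704 and 731, 1849 and 871, 1091 to 1854 and 587 to 886, and 1492 and 1071 with DESeq2. The causes were not tested. The labels give the number 1 to 1 unstimulated and 1 stimulated Jurkat library, which deviated together across genes (r = 0.755), but do not call it a batch, so it is not taken to pair them. With it as a replicate block the counts rose to 8300 and 7349 for 10x and to 8157 and 5835 for NOTE-seq. Of 123 named genes, 113 were past 4-fold, of which 109 stayed past it with TMM, 108 with NOTE-seq, 103 with methanol, 108 with the unnumbered Jurkat library and 102 with the mixed library. Of 90 named genes called for 10x, 75 remained without TMM and 89 without the unnumbered unstimulated library, and all 90 under the other alternatives. Of 79 called for NOTE-seq, 62 remained without TMM and all 79 otherwise. Rare genes are limited by depth, since those under 100 UMIs in the pair were not measured. Of the 15622 measured genes 189 had 0 UMIs in eHAP 10x. By the minimum of 100 UMIs in the pair, each of these must have at least 100 in Jurkat replicate 1.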
